A study of Mus musculus with 8 samples.

Results

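The 10 genes described here encode the Jun and Fos families of the transcription factor AP-1 (Jun, Junb, Jund, Fos, Fosb, Fosl1 and Fosl2) and 3 close partners of them, Batf, Batf3 and Atf3. They were taken by name from the GENCODE M21 annotation of the mouse genome GRCm38, and all 10 were found among its 20807 protein-coding genes on chromosomes 1 to 19. The measurements are hMeDIP-seq peak lists. In this assay sheared genomic DNA is pulled down with an antibody against 5-hydroxymethylcytosine (5-hmC) and sequenced. The cells were pro-B cells, early B cell progenitors sorted from bone marrow as B220+CD43+IgM-, of C57BL/6 mice aged 4 to 6 weeks. There were 2 libraries labelled wild-type and 2 libraries labelled Hdac7 fl/-, called HDAC7-deficient below, and 4 input libraries were not analysed here. Per the study's methods, the floxed Hdac7 allele was deleted by mb1-Cre, a Cre knocked into Cd79a that acts from the earliest B cell stages. The wild-type mice were Hdac7+/- littermates, so every animal carried 1 null Hdac7 allele and the groups differ in the other one. Whether these littermates also carried mb1-Cre is not stated, so the groups may differ in that too. Peak lists hold no expression values, so the sorted cell type could not be checked against its markers. The sources do not give the number of mice behind a library, and if the libraries of a genotype are not from separate animals the spread between them is technical.

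AP-1 is a dimer of basic leucine zipper proteins: a Jun protein pairs with itself, with a Fos protein or with a protein of the BATF and ATF groups, and the pair binds short palindromic DNA elements. Jun and Fos are immediate early genes that many cells switch on within minutes of stimulation by growth factors, antigen or stress. BATF and JUNB act together with IRF4 in lymphocytes, BATF3 is best known in conventional dendritic cells and ATF3 is a stress-induced repressor. 5-hmC is made from 5-methylcytosine by TET enzymes and is an intermediate of DNA demethylation that marks many gene bodies and enhancers.

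Wild-type lists held 1305200 and 1409143 peaks, and HDAC7-deficient lists 1414862 and 1371221. The peaks covered 9.16%, 10.5%, 9.05% and 10.3% of the autosomes in that order, with a median width between 147 and 171 bp. No height or read count was given with a peak, so the depth behind it is unknown and a base outside all peaks is not shown to lack 5-hmC. Below, 4 values in a row are always wild-type 1, wild-type 2, HDAC7-deficient 1 and HDAC7-deficient 2. A gene is called lower (or higher) without HDAC7 where both HDAC7-deficient values lie below (or above) both wild-type values. With 2 libraries against 2, the two-sided exact permutation test has only 6 ways to choose a group and cannot go below p = 0.333, which is the p of every gene called lower or higher here, so no single difference could reach 0.05. Counts of members were therefore read against the share of 13086 protein-coding genes of like length (within 25% of the length of a member) with the same pattern. The window of Hdac7 itself, the targeted gene, held 70, 57, 70 and 59 peaks within 10 kb, which does not check the deletion, since peaks say nothing of which allele was present.

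For 5 of the 7 members other than Jun, Fosb and Fosl2, the stretch of DNA within 10 kb of the gene that lay under a peak in all 4 libraries, the longest such stretch of each gene, touched no annotated exon. They are shown because all 4 lists agree on these bases, and the shorter common stretches near each gene are not shown. Capitals mark CpG dinucleotides, the usual site of 5-hmC, and the sequences are the plus strand of the RefSeq GRCm38.p6 genome. The Junb stretch (chr8:84974886-84974966) lies in an intron of an annotated Junb transcript, the Fos stretch (chr12:85469005-85469275) and the Batf3 stretch (chr1:191095234-191095373) lie upstream of their genes, and the Batf (chr12:85690051-85690196) and Atf3 (chr1:191192595-191192860) stretches lie in introns.
Junb: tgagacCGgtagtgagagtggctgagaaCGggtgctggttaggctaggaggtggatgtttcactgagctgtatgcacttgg
Fos: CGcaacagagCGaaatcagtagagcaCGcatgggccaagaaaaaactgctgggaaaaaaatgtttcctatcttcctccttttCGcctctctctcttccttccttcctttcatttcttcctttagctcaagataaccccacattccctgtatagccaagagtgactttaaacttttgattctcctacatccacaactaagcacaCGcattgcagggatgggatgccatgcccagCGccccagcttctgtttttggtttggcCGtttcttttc
Batf: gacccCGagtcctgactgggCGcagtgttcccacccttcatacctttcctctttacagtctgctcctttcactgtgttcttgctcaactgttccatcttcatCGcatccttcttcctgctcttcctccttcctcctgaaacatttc
Batf3: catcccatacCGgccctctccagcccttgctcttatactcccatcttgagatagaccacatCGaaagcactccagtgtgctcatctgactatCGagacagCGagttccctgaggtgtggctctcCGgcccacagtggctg
Atf3: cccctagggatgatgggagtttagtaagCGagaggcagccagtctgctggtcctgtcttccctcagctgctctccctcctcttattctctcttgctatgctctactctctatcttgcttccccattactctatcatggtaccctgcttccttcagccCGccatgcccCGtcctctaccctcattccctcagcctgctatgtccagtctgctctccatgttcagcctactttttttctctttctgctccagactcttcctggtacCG

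The stretches were between 81 bp (Junb) and 271 bp (Fos) long, and held 2 CpGs (Junb), 7 (Fos), 3 (Batf), 5 (Batf3) and 4 (Atf3). The longest runs free of CpG were 51 bp in the Junb, 119 bp in the Fos, 80 bp in the Batf, 49 bp in the Batf3 and 127 bp in the Atf3 stretch. On the strand shown, C or T made up 45.1% of the run in Junb and 68.9%, 76.2%, 67.3% and 74.0% in the others, in that order. Of the other members stressed here, the common stretch of Jund (59 bp, within Iqcn downstream of the gene) and of Fosl1 (111 bp, within Fibp) touched exons of those neighbours.

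Most AP-1 genes lay in neighbourhoods with more bases under peaks than the median gene of like length, but Jun, Batf and Fosl2 were close to that median. Averaged over the 4 libraries, between 10.4% (Batf) and 15.1% (Fosb) of the bases within 10 kb of a member were under a peak. For 9 of the 10 members this was above the median of genes of like length, Jun being the exception at percentile 49.6. Among the 7 members other than Jun, Fosb and Fosl2 the percentiles ran from 52.9 (Batf) to 82.3 (Junb), with a median of 77.4. In peaks per kb the highest densities were those of Junb, at 1.00 peak per kb and percentile 96.8 of its genes of like length, and Fosb, at 0.941 and percentile 96.3. The levels of the members overlapped from library to library, so that the order between Junb, Fosb, Fosl1 and Jund was not beyond the spread of the libraries. The 10-kb windows of Jund (53.5% GC) and Junb (52.6%) were also rich in GC, at percentiles 95.7 and 91.8 of their genes of like length. GC and peak bases did not go together in every member: Fosl2 stood at percentile 81.1 in GC and 55.5 in peak bases, and Fos at 57.2 and 77.2. The part of GC in the peak density was not tested.

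**Figure D1:**
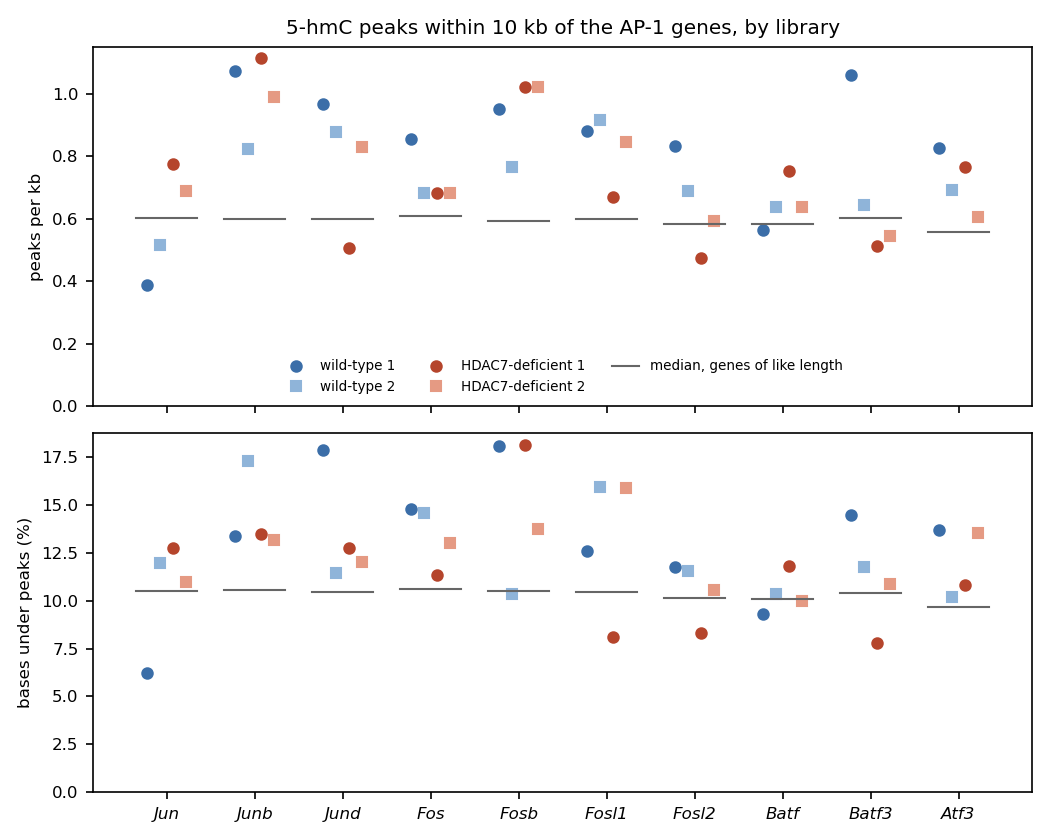
Peaks per kb (upper panel) and percent of bases under peaks (lower panel) within 10 kb of each AP-1 gene, one point per library, with a grey line at the median of the genes of like length of that gene. Jund, Fosl1, Fosl2 and Batf3 have both HDAC7-deficient points below both wild-type points in the upper panel, and Fos, Fosl2 and Batf3 in the lower panel.

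Between genotypes, with unscaled libraries, the members stressed here were lower or overlapping without HDAC7. In none of the 4 windows was any of the 7 called higher, against 6.84% to 13.2% of genes of like length by window and measure. At such shares, none of 7 is close to the background. Within 10 kb, 3 of the 7 (Jund, Fosl1 and Batf3) were called lower in peaks, and 4 of all 10 did when Fosl2 is counted, against 11.9% of genes of like length. More peaks were found for 2 of 10, Jun and Fosb, against 12.8%. After each library was scaled to its autosomal total, the shares of genes of like length were 13.0% higher and 18.5% lower, and Batf took the place of Fosb among the 2 members called higher. In bases under peaks within 10 kb, 3 of 10 members were lower (Fos, Fosl2 and Batf3) against 19.1%, and 0 of 10 were higher against 10.6%, so the count of lower members in bases was close to the background. With peaks of at least 200 bp alone the members lower in peaks were Junb and Fosl2, against 14.1% of genes of like length, and the only one higher was Fosb, against 6.72%, so that Jund, Fosl1 and Batf3 were no longer called.

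Over the gene body alone, 2 of 10 members had fewer peaks without HDAC7 (Jund and Batf3) against 10.8%, and 0 of 10 had more against 10.3%. Bases under peaks in the gene body were lower for 4 of 10 (Junb, Jund, Fosl2 and Batf3) against 17.2%, and higher for 1 of 10 (Jun) against 12.2%. With 2 kb added on each side, Jund alone was lower in peaks, 1 of 10 against 11.6%, and 0 of 10 were higher against 11.4%. In bases 4 of 10 were lower (Junb, Fos, Fosl2 and Batf3) against 18.3%, and 1 of 10, Jun, was higher against 11.9%. At 50 kb, peaks were fewer for 3 of 10 (Fosl1, Fosl2 and Batf) against 10% and more for 0 of 10 against 13.2%. Bases at 50 kb were lower for 4 of 10 (Junb, Fosl1, Fosl2 and Batf) against 21.4% and higher for 0 of 10 against 6.84%. The members called lower were thus not one fixed set. Over the 8 combinations of window and measure, Fosl2 was called lower in 6, Batf3 in 5, Jund in 4, Junb and Fosl1 in 3 each, Fos and Batf in 2 each and Atf3 in 0. Jun was called higher in 3 and Fosb in 1, and neither was called lower. The windows are nested and both measures use the same peaks, so repeated calls of a gene are not separate observations. No such tally was made for genes of like length.

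The median ratio of the members came closer to 1 as the window grew. The median ratio of HDAC7-deficient to wild-type peak bases over the 7 members was 0.625 in the gene body, 0.723 with 2 kb, 0.845 with 10 kb and 0.93 with 50 kb. Genes of like length had median ratios of 0.951, 0.946, 0.957 and 0.959. In the gene body 6 of the 7 members had a ratio of bases below 1, as did 56.6% of genes of like length. The windows are nested, so these values share peaks and are not separate observations. Ratios of small windows also rest on fewer bases, and how widely such ratios vary among genes of like length was not measured.

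**Figure D2:**
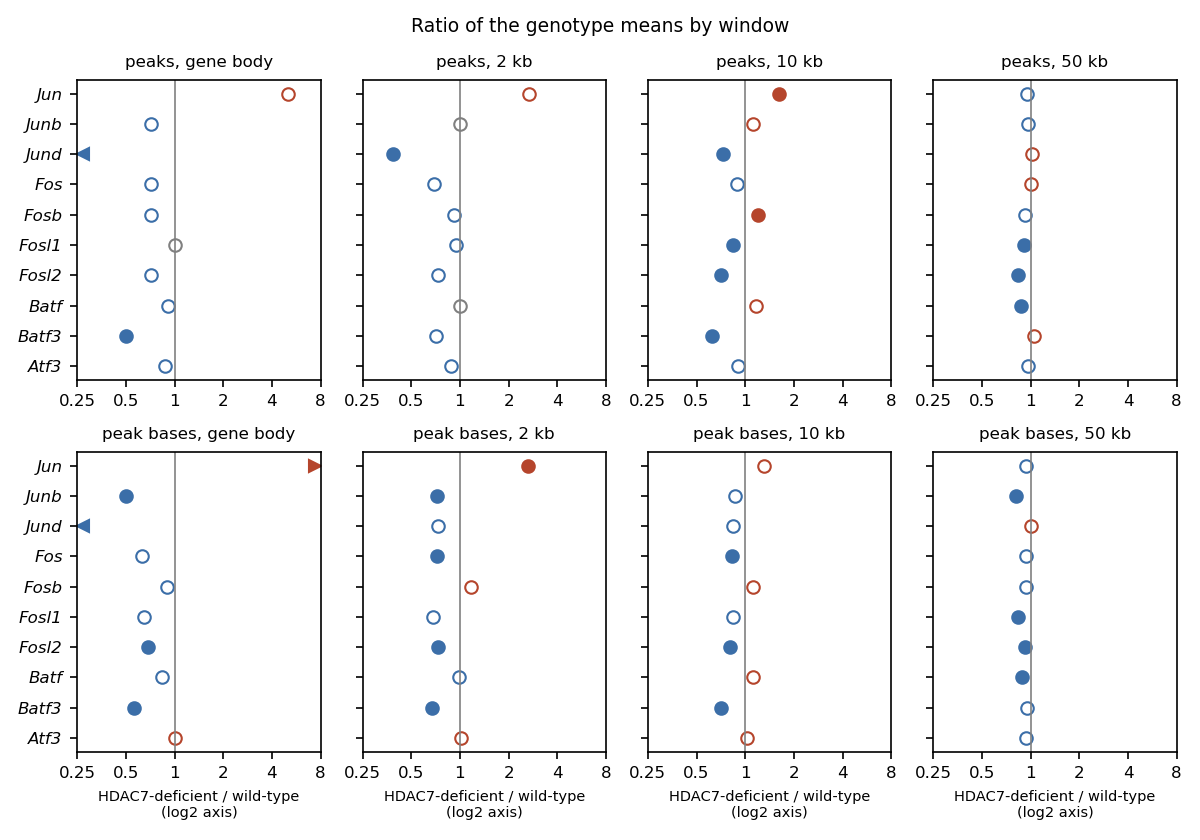
Ratio of the HDAC7-deficient to the wild-type mean (x axis, log2 scale) for each AP-1 gene, in peaks (upper row) and peak bases (lower row), for the gene body and with 2, 10 and 50 kb on each side. Filled points mark genes whose 2 genotypes do not overlap, open points the others, and triangles mark ratios beyond the axis: Jund at 0 and, in gene-body bases, Jun, whose wild-type libraries had 17 and 0 bases. Most points for members other than Jun and Fosb lie left of 1, and the spread narrows towards 50 kb.

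Among the Jun proteins, JUN is the main activating partner of FOS, JUNB often acts against it, and JUND is expressed constitutively. Junb is on chromosome 8 (chr8:84974484-84978718, minus strand). Its gene body had 521, 923, 240 and 481 bases under peaks, a ratio of 0.499 ± 0.307 (SD, n = 2 libraries a genotype), and both HDAC7-deficient values lay below both wild-type values by a narrow margin (481 against 521). In its coding sequence 46, 253, 0 and 0 bases were under peaks, so that peaks over the coding exon were listed in the wild-type libraries only, in wild-type 1 over a small stretch. These peaks lay apart, at chr8:84978290-84978335 in wild-type 1 and chr8:84977654-84977906 in wild-type 2, so the replicates shared no coding base. Within 10 kb the number of Junb peaks overlapped between the genotypes (26, 20, 27 and 24), and at 50 kb its bases were again lower (14833, 16784, 14750 and 10800), wild-type 1 and HDAC7-deficient 1 being nearly equal. The window of Junb also takes in Prdx2 and Rnaseh2a, and the common stretch printed above lies close to the end of Prdx2.

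Jund, on the same chromosome (chr8:70698949-70700616, plus strand), is a single-exon gene with 1, 5, 0 and 0 peaks in its body. The wild-type peaks were small and lay outside the coding sequence: 47 and 133 bases in total, all in the untranslated exon part, and the coding sequence of 1023 bp had no base under a peak in any library. With 2 kb on each side there were 7, 6, 4 and 1 peaks, a ratio of 0.385 ± 0.329 (SD, n = 2). Bases in the same window did not separate the genotypes (795, 163, 571 and 134), since replicate 1 of each genotype had several times the bases of replicate 2. Within 10 kb there were 21, 19, 11 and 18 peaks, where HDAC7-deficient 2 lay only 1 peak below wild-type 2, and the call was lost when libraries were scaled to their chromosome, at a like ratio (0.725 unscaled and 0.728 scaled). The call was also lost when peaks within 100 bp were merged, at a ratio of 0.767. With peaks of at least 200 bp alone the direction turned, to a ratio of 1.09. Upstream of Jund, regions seen in 1 genotype alone went both ways. The widest in the HDAC7-deficient libraries (chr8:70689176-70689568) had 393 and 229 bases. The widest in the wild-type libraries (chr8:70694868-70695102) had 235 and 175 bases. An antisense transcript, Gm11175, overlaps Jund and cannot be told apart from it in these lists.

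Jun (chr4:95049034-95052222, minus strand) was the only Jun gene called higher in any window. Its 10-kb window had 9, 12, 18 and 16 peaks, but 1441, 2779, 2959 and 2539 bases, where the genotypes overlapped. At 50 kb the genotypes overlapped in both measures, with ratios of 0.946 in peaks and 0.94 in bases. Its coding sequence had 0, 0, 269 and 141 bases under peaks, while that of Junb had bases only in the wild-type libraries and that of Jund in none. The HDAC7-deficient libraries shared no coding base of Jun. The coding bases of HDAC7-deficient 1 lay in chr4:95050875-95051093 and chr4:95051146-95051195, where no other library had a peak.

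**Figure D3:**
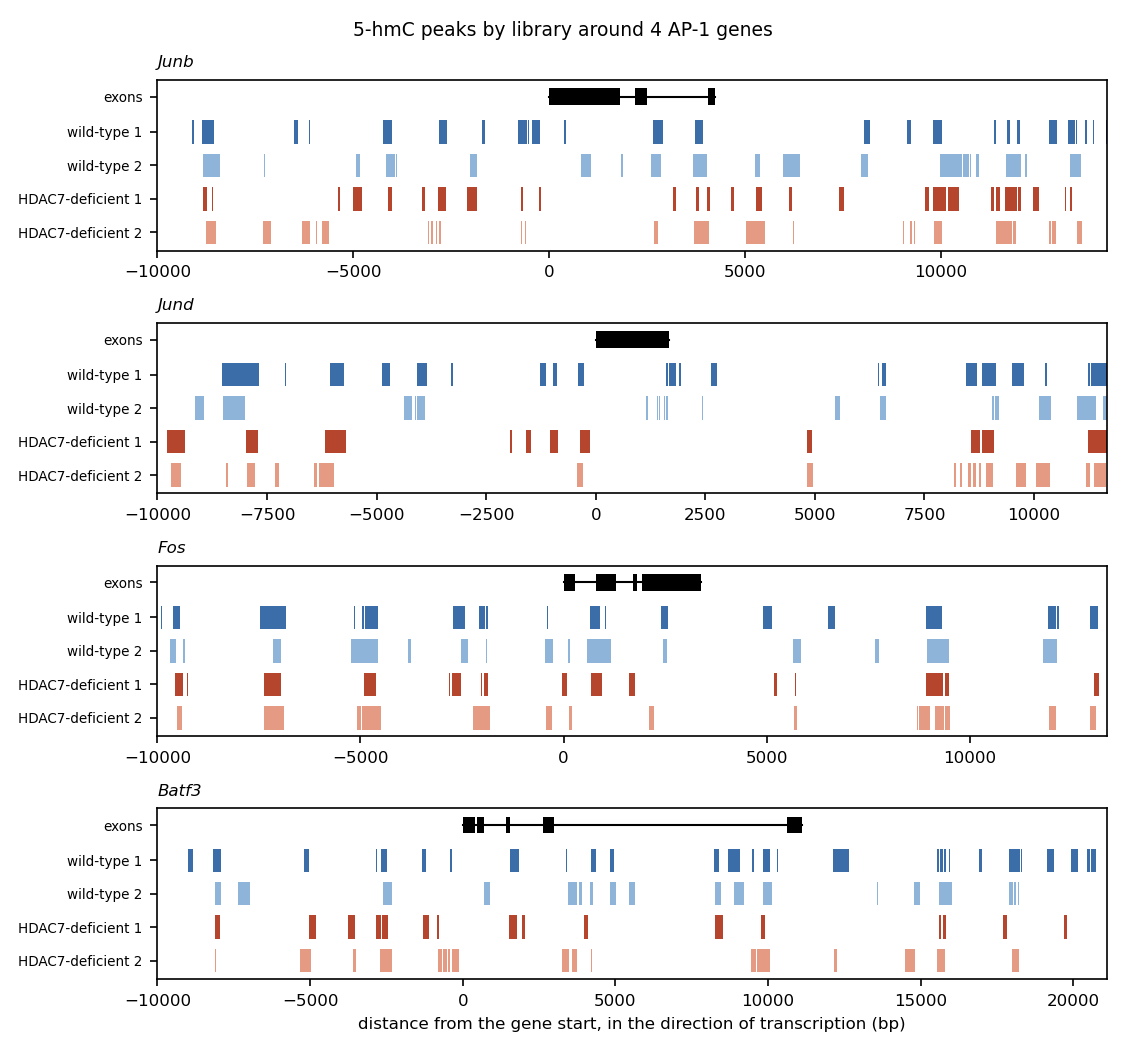
Peaks of the 4 libraries (rows of blocks) around Junb, Jund, Fos and Batf3, by distance in bp from the gene start in the direction of transcription, with exons as black blocks and 10 kb on each side. No block stands over the coding part of Jund in any library, and over the end of the longest Batf3 intron the wild-type rows hold more blocks than the HDAC7-deficient rows.

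Of the Fos proteins, FOS and FOSB carry strong activation domains, and FOSL1 and FOSL2, also called FRA-1 and FRA-2, lack them. Fos (chr12:85473890-85477273, plus strand) had 3452, 3409, 2645 and 3041 bases under peaks within 10 kb. The wild-type libraries were nearly equal and both HDAC7-deficient libraries lay below them, a ratio of 0.829 ± 0.082 (SD, n = 2), and this call was kept when libraries were scaled to their autosomal or chromosome total. Peak numbers did not separate the genotypes (20, 16, 16 and 16). With 2 kb the bases were 819, 948, 711 and 566. Fos was at percentile 18.9 of the difference among genes of like length within 10 kb, so that 18.9% of them had a larger deficit. The gene body alone overlapped (459, 730, 528 and 215), with the lowest value in HDAC7-deficient 2, which had no base under a peak in the Fos introns, against 146, 230 and 217 in the other libraries. The common region upstream of Fos, which holds the sequence printed above (chr12:85468652-85469401), had 374, 651, 312 and 551 bases, so the genotypes overlapped there. A region over a Fos coding exon (chr12:85476299-85476459) had a peak in both wild-type libraries, of 161 and 78 bases, and in neither HDAC7-deficient library.

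Fosl1 (chr19:5447547-5455946, plus strand) had 25, 26, 19 and 24 peaks within 10 kb, a ratio of 0.843 ± 0.141 (SD, n = 2). At 50 kb it had 84, 83, 82 and 69 peaks and 14227, 16484, 12312 and 13415 bases. Here too the margins were small, 24 against 25 peaks at 10 kb and 82 against 83 at 50 kb. The gene body showed no such order: peaks were 7, 7, 2 and 12 and bases 1078, 1300, 333 and 1200, where HDAC7-deficient 1 was low and HDAC7-deficient 2 was at the level of the wild-type. HDAC7-deficient 2 also carried more peaks on all of chromosome 19, 1.08 times the mean of the other libraries after correction for the totals, against 0.96 to 0.99 on the other chromosomes with members. Fosl1 remained lower in peaks within 10 kb after scaling to the chromosome. Ccdc85b overlaps the end of Fosl1 on the opposite strand, and Fibp and Ctsw follow within 10 kb, so peaks there belong to several genes.

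Fosb and Fosl2 are given only for comparison. Fosl2 was lower in peaks within 10 kb (35, 29, 20 and 25) and in bases (4945, 4863, 3493 and 4446), and Fosb had 26, 21, 28 and 28 peaks there with overlapping bases (4946, 2827, 4959 and 3755).

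BATF and BATF3 lack an activation domain of their own and act through their partners, and BATF is needed for class switching in B cells and for several helper T cell fates. Batf3 (chr1:191097847-191108945, plus strand) was called lower in both measures over the gene body and within 10 kb. Its gene body had 10, 10, 5 and 5 peaks and 1471, 1894, 837 and 1039 bases, a ratio of bases of 0.558 ± 0.130 (SD, n = 2), and the replicates of each genotype were close to each other. Within 10 kb it had 33, 20, 16 and 17 peaks, a ratio of 0.623 ± 0.218 (SD, n = 2), and 4497, 3657, 2419 and 3371 bases. The difference in peaks, a mean of 26.5 against 16.5, was at percentile 0.662 of its genes of like length, and that in bases at percentile 6.14. Much of it came from wild-type 1, and without that library the ratio of peaks was 0.825. With peaks of at least 200 bp alone Batf3 was called lower within 10 kb in neither measure, with ratios of 0.706 in peaks and 0.672 in bases. Nearly all of the gene-body signal lay in the introns, and the coding sequence of 354 bp had no base under a peak in any library. At 50 kb, where the window runs into that of Atf3, the genotypes overlapped, with 67, 67, 75 and 66 peaks. An intronic region of Batf3 (chr1:191106700-191107049) had a peak in both wild-type libraries, of 239 and 306 bases, and in neither HDAC7-deficient library, while a region upstream (chr1:191094076-191094350) had 239 and 95 bases in the HDAC7-deficient libraries alone.

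Batf (chr12:85686669-85709087, plus strand) had 24, 27, 32 and 27 peaks and 3948, 4379, 5009 and 4232 bases within 10 kb, where the genotypes overlapped. Its exons were different from its introns. Of 1406 exonic bases, 392, 603, 99 and 57 were under peaks, or 27.9%, 42.9%, 7.04% and 4.05%. In the introns the values were 1990, 2059, 2565 and 1474, with no separation. The exonic bases did not come from the same exons in each library. The middle exon had peaks in every library but wild-type 1, and the last exon in wild-type 1 alone. Only in the first exon did both HDAC7-deficient libraries lie below both wild-type libraries. The widest Batf region found in the wild-type libraries alone was intronic (chr12:85700286-85700597), with 118 and 312 bases. The widest found in the HDAC7-deficient libraries alone was also intronic (chr12:85697696-85697740), with 12 and 37 bases. At 50 kb Batf was lower in both measures, with 81, 86, 76 and 69 peaks.

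Atf3 (chr1:191170296-191218039, minus strand), the longest member, did not separate the genotypes in any window. It had 56, 47, 52 and 41 peaks and 9263, 6888, 7336 and 9153 bases within 10 kb. The ratio of bases was 1.02 ± 0.265 (SD, n = 2), and in bases wild-type 1 and HDAC7-deficient 2 were the high libraries. Intronic regions seen in 1 genotype alone were found in both directions: one of 639 bp in the HDAC7-deficient libraries (chr1:191193968-191194606) with 327 and 401 bases, and one of 358 bp in the wild-type libraries (chr1:191196520-191196877) with 270 and 302 bases. Both lie within 5 kb of the common stretch printed above, which had a peak in every library.

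The exonic pattern of Batf was then examined in the other members, a comparison chosen after the Batf values had been seen. Bases under peaks in exons were lower without HDAC7 for 5 of 10 members (Junb, Jund, Fos, Fosl2 and Batf) against 14.6% of genes of like length, and higher for 1 of 10 (Jun) against 12.2%. Among the 7 members stressed here, 4 were lower and 0 higher. Batf, whose values prompted the comparison, is counted in both sets, so the counts are not independent of that choice. The exons of Jun and Jund fill the whole gene, so their exon calls repeat the gene-body calls given above. As a share of exon length Batf had the widest gap of the 5 lower members, and in bases Fosl2 did (1404 against 1093, and 392 against 99 for Batf). For Fos the values were 313, 500, 311 and 215, with 2 bases between the closest libraries, and for Junb 46, 253, 44 and 9, also with 2 bases between them, so these calls rest on very small margins, and once libraries were scaled to their autosomal total Fos was no longer called and Fosb was. With peaks of at least 200 bp alone, 3 members were lower (Fosl1, Fosl2 and Batf) against 11.5% of genes of like length. In that setting 2 were higher (Jun and Atf3) against 9.07%.

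Merging the 4 lists gave 475 regions within 10 kb of the 10 genes and 350 within 10 kb of the 7. A peak in all 4 libraries was found in 10.9% of the regions of the 10 genes and 10.3% of those of the 7, against 11.95% near genes of like length. Regions with a peak in both wild-type libraries and in neither HDAC7-deficient library numbered 16 around the 7 genes (4.57%), and the reverse 8 (2.29%). Near genes of like length these shares were 2.57% and 2.72%. Fosl1 contributed 5 of the 16. Regions of 1 library made up 56.6% around the 7 genes and 54.7% near genes of like length, so most regions were not shared even between replicates.

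**Figure D4:**
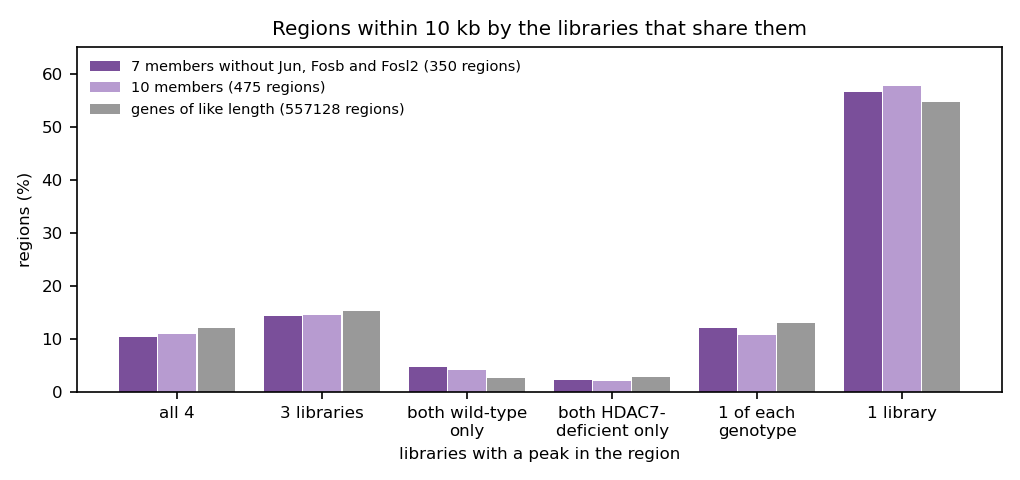
Share of merged regions within 10 kb (percent, y axis) by which libraries have a peak in them, for the 7 members other than Jun, Fosb and Fosl2, all 10 members and genes of like length. The bars for both wild-type libraries only are taller for the members (4.57% and 4.00%) than for genes of like length (2.57%), and regions of 1 library are the largest class in each set.

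The starts of most members are CpG islands, where 5-hmC is generally held to be scarce. In these lists such starts were only slightly lower in peak bases, and not in HDAC7-deficient 1. Over all autosomal protein-coding genes, bases within 500 bp of a start were compared by the ratio of observed to expected CpG. At a ratio of at least 0.6, 9.12%, 10.96%, 10.04% and 8.34% of them were under peaks. Below 0.6 the shares were 10.06%, 11.54%, 9.996% and 10.29%. Within 500 bp of the annotated gene start the ratio of observed to expected CpG was between 0.636 and 0.882 for 8 of the members, 0.34 for Batf and 0.248 for Atf3. The value depends on the start and window chosen. From 250 bp before to 50 bp after the RefSeq start, which Fosl1 lacks, the ratio was 0.867 for Atf3 and 0.184 for Jund. It was 0.487 for Batf, 0.594 for Jun and between 0.666 and 1.03 for the others. The GENCODE start of Jund had 0.882. Batf had the most bases under peaks there in both wild-type libraries, 330, 424, 73 and 263, and its start lay inside a peak in 3 of 4 libraries. The start of Fosl1 had 0, 139, 112 and 450 bases, that of Junb 268, 0, 50 and 0 and that of Jund 150, 0, 232 and 134. Over the 10 members 13.1%, 9.59%, 5.90% and 14.6% of these bases were under peaks, against 9.61%, 11.3%, 10.02% and 9.37% over all autosomal protein-coding genes, so the replicates differed by more than the genotypes.

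Because peaks covered the start of Batf in 3 libraries, the part of its RefSeq promoter outside annotated exons is shown (chr12:85686470-85686668, plus strand, CpGs in capitals). Peaks covered 63, 198, 0 and 199 of its 199 bases, so the gap in HDAC7-deficient 1 was not shared by HDAC7-deficient 2.
Batf promoter: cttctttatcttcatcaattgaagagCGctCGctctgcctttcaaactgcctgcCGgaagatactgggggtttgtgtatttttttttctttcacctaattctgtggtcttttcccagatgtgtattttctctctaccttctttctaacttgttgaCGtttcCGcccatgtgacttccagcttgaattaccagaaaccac

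The RefSeq table held promoters, from 250 bp before to 50 bp after the start, for 9 of the 10 members. Its start is that of the GENCODE gene for Jun and Fos, and differs from it for the other 7 of these 9. Neither of the AP-1 elements, TGANTCA or TGACGTCA, was found in either strand of these 9 windows, while 7.81% and 1.79% of 32851 mouse promoters hold them. The absence says only that these letters are not in these windows.

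Other genes of the pathway were counted in the same way within 10 kb. The shares among genes of like length were, as above, 12.8% higher and 11.9% lower in peaks and 10.6% and 19.1% in bases. Of 9 relatives of the leucine zipper family, 2 were higher in peaks (Atf2 and Maff) and 2 lower (Jdp2 and Mafk), and in bases 0 were higher and 4 lower (Jdp2, Batf2, Mafg and Mafk). Mafk, a small MAF protein, had 28, 24, 17 and 12 peaks and 3528, 3712, 2268 and 2014 bases, and Jdp2, a repressor of AP-1, had 51, 54, 48 and 42 peaks. Of 10 kinases and upstream regulators, 2 were higher in peaks (Mapk14 and Map2k7) and 1 lower (Mapk8, which encodes the kinase JNK1), and in bases 0 were higher and 2 lower (Mapk8 and Mapk9), counts near those shares. Mapk8 had 47, 54, 39 and 35 peaks. The median ratio of bases was 0.921 for the relatives and 1.02 for the kinases, against 0.856 for the 10 members and 0.957 for genes of like length. Tet2, which encodes one of the enzymes that make 5-hmC, had 56, 41, 54 and 46 peaks, where the genotypes overlapped. Its bases were called lower, at 8546, 8599, 7675 and 6389, a ratio of 0.820.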

How the data were processed

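The deposited values were the start and end positions of peaks, with no height, score or p-value; per the labels the reads were trimmed with cutadapt 1.6 under Trim Galore (version 0.4.2) and mapped with Bowtie2 to mm10, whereas the study's methods name bwa. The authors then normalized the signal with deepTools and called peaks in each library with the bdgpeakcall tool of MACS2, removing peaks that met an input peak at a stage that is not stated. Peaks sharing at least 1 bp with a window were counted, and bases under peaks summed, with Python 3.11.15 and NumPy 2.4.6 (figures: matplotlib 3.10.9). Window counting was tested on simulated data. Genes came from GENCODE M21 and sequences from RefSeq GRCm38.p6, a genome of the same build. Ratios are of genotype means, with the SD propagated from the libraries; single differences were tested with an exact permutation test. All 10 members were named. Regions were named as the longest stretch common to 4 libraries and the widest region of 1 genotype. The members and lists were chosen with earlier results of these data known.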

Additional observations from a re-analysis of the deposited data

How the results depend on the processing

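The counts of members called within 10 kb and in exons were recomputed under other settings, and the cause of the changes was not tested; other windows were not recomputed. With peaks of at least 200 bp alone, 1 member was higher (Fosb) and 2 were lower (Junb and Fosl2, of which Fosl2 alone is shared with the 4 reported) in peaks within 10 kb, and 2 were higher and 3 lower in exon bases. Merging peaks within 100 bp left 1 member higher in peaks (Jun), against 10.5% of genes of like length. It kept 4 members lower in peaks, against 12.03%, but Fos took the place of Jund among them. Leaving out each library in turn gave from 2 to 4 members higher and from 4 to 6 lower in peaks within 10 kb, from 0 to 3 higher and from 4 to 5 lower in bases, and from 1 to 3 higher and from 5 to 7 lower in exon bases. The libraries that moved a count by over 1.5 times were wild-type 1 (3 higher and 5 lower in bases without it), wild-type 2 (2 higher and 5 lower in bases), HDAC7-deficient 1 (2 higher in exon bases) and HDAC7-deficient 2 (4 higher in peaks, 3 in bases and 3 in exon bases). Members higher in bases were Jund, Fosb and Atf3 without wild-type 1, Jun and Batf without wild-type 2, and Jun, Fosb and Batf without HDAC7-deficient 2. With fewer libraries the pattern is also easier to meet: of genes of like length, from 22.3% to 35.6% were higher and from 20.2% to 37.4% lower in peaks, from 19.8% to 33.6% and from 29.7% to 48.2% in bases, and from 23.7% to 30.1% and from 26.6% to 39.2% in exon bases. Scaling each library to its autosomal or chromosome total kept every count within 1.5 times, although not always with the same members: Batf replaced Fosb among the 2 higher in peaks. The exon settings were chosen after seeing the data.

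Replicate numbers are shared between the genotypes, but nothing says that they pair animals. Across the 13086 genes of like length the deviations of same-numbered libraries correlated at 0.143 in peaks and 0.14 in bases. With a replicate block (each HDAC7-deficient library against the wild-type library of its number), 3 members were higher and 5 lower in peaks within 10 kb, 1 higher and 4 lower in bases, and 1 higher and 6 lower in exon bases. The shares of genes of like length were 20.4% and 19.9%, 19.2% and 30.9%, and 18.9% and 23.0%, so 4 lower in bases is near the background. Of 100 ratios of single members recomputed for peaks, 3 moved by more than the spread of the replicates, and of 90 for bases, 3 did. Ratios with a library left out can hardly move by this limit, since the spread comes from the same libraries. Without them, 3 of 60 ratios moved in peaks and 2 of 50 in bases. The ratio crossed 1 in 5 of the 100 and in 9 of the 90. With peaks of at least 200 bp, Junb went from 1.11 to 0.722 and Jund from 0.725 to 1.09 in peaks. Without HDAC7-deficient 1, Fosl1 went from 0.842 to 1.11 in bases. With other limits on gene length (10% and 50%) the shares of genes of like length called within 10 kb were between 10.4% and 19.2%. The unknown depth of the libraries limits all of these counts.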

Other observations

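The windows of the AP-1 genes held more CpG than those of genes of like length, but the bases under their peaks held no more CpG than the windows as a whole. Within 10 kb the 10 members held 18.5 CpGs per kb, and the bases under peaks held 17.6, 18.0, 15.9 and 17.8 per kb in wild-type 1, wild-type 2, HDAC7-deficient 1 and HDAC7-deficient 2. Around genes of like length the window held 12.3 CpGs per kb and the peaks 12.8, 12.8, 12.7 and 12.04. Junb and Jund, the members with the most CpG in their windows (27.7 and 24.0 per kb), had fewer CpGs per kb under peaks than in the window in every library, at 25.3, 21.3, 14.4 and 21.4 for Junb and 16.8, 18.1, 12.7 and 9.59 for Jund. Fos was the reverse, with 21.9 per kb in the window and 28.7, 30.2, 26.8 and 26.6 under peaks. Fosl1 was also above its window (20.7 per kb) in every library, at 22.4, 22.3, 24.7 and 23.3. Repeats made up 28.7% of the window of Jund and between 24.4% and 44.8% of the bases under its peaks.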
